A study of Mus musculus with 66 samples.

Results

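Replacement histone variants are encoded by genes outside the large histone clusters whose transcripts mostly carry a poly(A) tail, and 9 such mouse genes were followed here: H3f3a and H3f3b (both H3.3), H2afz and H2afv (the H2A.Z pair), H2afx (H2A.X), H2afj (H2A.J), H2afy and H2afy2 (macroH2A1 and macroH2A2) and Cenpa (CENP-A). They were taken by symbol from the deposited expression tables. The mRNA-Seq table, in FPKM (fragments scaled to exon length and to the fragments mapped in a library, so a level per length), lists 22489 genes and holds 7 of the 9, and 6 of these had a mean of at least 1 FPKM over 20 libraries and were tested with 10948 other genes. H3f3a and H3f3b have no row there and were read from the 3′-seq tables, which list 76 histone genes in RPM (reads scaled to the uniquely mapped reads of a library, with no scaling to length).

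mRNA-Seq was made from C2C12, a mouse myoblast line that withdraws from the cell cycle and forms muscle cells when serum is lowered, in 10 lines with 1 library per line and state. They were WT cells without a transgene and 9 lines with a doxycycline-inducible transgene for an N-terminally GFP-tagged H3, namely H3.1, H3.2 and H3t (H3.1/H3.2-type) and, of the H3.3-type, H3.3 itself and H3mm7, H3mm11, H3mm12, H3mm13 or H3mm16. The GFP lines were selected in 1 µg/ml doxycycline and sorted for GFP, so each line is 1 selected population carrying its transgene in both states. Whether WT cells received doxycycline is not given in the sources used here. The mRNA-Seq libraries followed the protocol of Illumina, and the paper names an oligo(dT) primer only for quantitative RT-PCR. The 10 lines serve as the replicates of a state, so p-values measure the spread between lines. Growth libraries came from subconfluent cells in 20% fetal bovine serum and differentiated libraries from cells kept in 2% horse serum for 48 h. 3′-seq covered brain, liver, skeletal muscle and testis of 8-week-old C57BL/6 male mice, with 2 libraries of each, and C2C12 cells with 1 library per state.

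Canonical histones are made in S phase from clustered genes, whereas replacement variants can be made and placed in chromatin outside replication. H2A.Z is exchanged into promoter nucleosomes by the SRCAP and p400 complexes, H2A.X carries the phosphorylation that marks DNA double-strand breaks, and macroH2A has a large extra domain and is known from silent chromatin. CENP-A replaces H3 at centromeres, where HJURP deposits it and the inner kinetochore assembles on it, and H3.3 is placed by HIRA at active genes and by DAXX and ATRX at repeats. In muscle cells these genes are of interest because differentiated cells leave the cell cycle but still have to renew their chromatin.

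The 9 genes lie on 8 chromosomes in mm9, and each is annotated as protein coding: H3f3a on chromosome 1 (182730963 to 182744074, minus strand), H2afz on chromosome 3 (137527451 to 137529886, plus), Cenpa on chromosome 5 (30969150 to 30977200, plus), H2afj on chromosome 6 (136756769 to 136758595, plus), H2afx on chromosome 9 (44142798 to 44144154, plus), H2afy2 on chromosome 10 (61201391 to 61246895, minus), H2afv and H3f3b on chromosome 11 (6327229 to 6344446 and 115883226 to 115889276, both minus) and H2afy on chromosome 13 (56174980 to 56237722, minus). H2afx and H2afj consist of 1 exon each. Pairs of these genes encode almost the same protein with different bases. H3f3a and H3f3b encode the same 136 residues, but their coding sequences were identical at only 76.7% of bases. H2afz and H2afv share 125 of 128 residues (97.7%) and 79.5% of aligned coding bases, and H2afy and H2afy2 share 68.2% of aligned residues. The first 120 coding bases of both close pairs, taken from the mm9 transcript annotation, are shown because they show how reads can tell the partners apart, with capitals at bases that differ within a pair.
H2afz: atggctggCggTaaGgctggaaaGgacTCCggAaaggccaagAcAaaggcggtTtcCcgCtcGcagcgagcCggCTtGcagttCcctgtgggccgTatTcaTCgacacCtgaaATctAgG
H2afv: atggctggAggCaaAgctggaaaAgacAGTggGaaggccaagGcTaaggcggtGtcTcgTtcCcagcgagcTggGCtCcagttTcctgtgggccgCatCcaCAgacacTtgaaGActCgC
H3f3a: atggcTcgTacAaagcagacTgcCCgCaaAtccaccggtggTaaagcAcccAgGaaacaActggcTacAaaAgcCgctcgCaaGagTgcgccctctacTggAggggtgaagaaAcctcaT
H3f3b: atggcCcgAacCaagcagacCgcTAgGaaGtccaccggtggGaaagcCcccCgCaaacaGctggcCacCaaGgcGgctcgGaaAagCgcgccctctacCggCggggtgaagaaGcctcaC
The H2A.Z pair differed at 28 of these 120 bases, 20 of them at the last base of a codon, and the H3.3 pair at 24, with 22 at the last base of a codon. The longest run without a difference over the whole coding sequence was 14 bases for H2afz and H2afv and 23 bases for H3f3a and H3f3b.

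Copies elsewhere in the genome are a different matter from the partner gene. Of the 31-base words in the annotated exons, 53.6% occurred once in mm9 for H2afz, against 98.7% for H2afv, 99.8% for Cenpa, 97.7% for H2afy, 92.5% for H2afj, 91.0% for H2afx, 79.2% for H2afy2, 73.6% for H3f3b and 71.0% for H3f3a. H2afz, H3f3a and H3f3b thus had the lowest shares of words with a single place. How far their levels depend on the counting of reads with several places was not tested.

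Promoter sequences from RefSeq (GRCm38.p6, 250 bases before to 50 bases after the start site) were found for 8 of 9 genes, all but H2afx. Those of 3 genes are shown: 2 that fell on differentiation (Cenpa, chr5:30666636-30666935, plus strand, and H2afz, chr3:137864237-137864536, plus strand) and 1 that rose (H2afj, chr6:136807998-136808297, plus strand). Capitals mark CCAAT, the box bound by NF-Y, and TTTGAA, the cell cycle homology region (CHR), on either strand.
Cenpa: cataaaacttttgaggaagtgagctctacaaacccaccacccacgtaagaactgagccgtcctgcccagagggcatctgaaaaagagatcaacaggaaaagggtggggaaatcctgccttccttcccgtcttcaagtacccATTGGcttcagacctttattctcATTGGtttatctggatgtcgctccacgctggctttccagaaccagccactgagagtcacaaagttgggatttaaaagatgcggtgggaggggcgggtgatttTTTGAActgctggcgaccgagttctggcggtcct
H2afz: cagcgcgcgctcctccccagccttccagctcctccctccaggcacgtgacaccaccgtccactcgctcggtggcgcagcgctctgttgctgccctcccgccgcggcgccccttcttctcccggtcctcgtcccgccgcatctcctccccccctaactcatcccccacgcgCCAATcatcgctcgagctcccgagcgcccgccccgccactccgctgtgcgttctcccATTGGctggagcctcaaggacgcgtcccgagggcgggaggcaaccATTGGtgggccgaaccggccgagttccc
H2afj: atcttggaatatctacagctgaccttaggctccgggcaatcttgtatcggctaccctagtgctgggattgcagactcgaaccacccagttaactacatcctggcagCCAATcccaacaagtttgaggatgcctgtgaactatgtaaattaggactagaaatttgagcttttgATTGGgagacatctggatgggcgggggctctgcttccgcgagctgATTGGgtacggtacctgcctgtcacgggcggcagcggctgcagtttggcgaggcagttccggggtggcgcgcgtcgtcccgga
CCAAT was present in 7 of the 8 promoters (all but H2afy), against 37.4% of 32851 promoters in the RefSeq table. It occurred 4 times each in those of H3f3b and H2afv, 3 times each in those of H2afz and H2afj, 2 times in that of Cenpa and 1 time each in those of H3f3a and H2afy2. TTTGAA was found for Cenpa and H2afv (17.9% of all promoters). None of the E2F forms searched (TTTGGCGC, TTTCGCGC, TTTCCCGC and TTTGCCGC, both strands) was in any of the 8 windows, and 2.27% of all promoters held one. TATAAA was in the window of H3f3b alone (13.6% of all promoters). These are matches of letters, and the motifs do not overlap in these windows. CCAAT was held by H2afj, which rose, and by Cenpa and H2afz, which fell, but not by H2afy, which fell as well. For H2afx, which also fell, no promoter sequence was at hand.

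The differentiated libraries had the muscle programme and the growth libraries the cell cycle programme. All 13 muscle genes of the list, among them Myog and Actc1, were called higher in differentiated cells, and all 17 cell cycle genes, among them Mki67 and Top2a, were called lower. Of the markers of other cell types, 4 of 5 for adipocytes, 3 of 5 for osteoblasts, 4 of 5 for endothelium and 5 of 5 for leukocytes stayed below 1 FPKM in every library, with Emr1 at 0 throughout. The summed adipocyte level was 0.679 to 5.25 FPKM in growth and 0 to 1.85 FPKM in differentiated cells. Those of the other lists were 0.0271 to 2.78 and 0 to 2.40 FPKM (osteoblast), 0.237 to 7.68 and 0.0179 to 2.16 FPKM (endothelial), and 0 to 0.0993 and 0.0423 to 0.367 FPKM (leukocyte). Of the myoblast markers, Cdh15 and Des were called higher in differentiated cells. Myod1 (0.79, adjusted p = 0.169, limma) and Myf5 (-0.05, adjusted p = 0.884) did not pass, and Pax7, at or below 0.982 FPKM, was not tested. WT libraries stood apart for part of the genes: 233 of 10954 (2.13%) were over 8-fold below every GFP line in both states, among them H2afz and 50 of 88 ribosomal protein genes, and 18 were over 8-fold above. How the WT reads were mapped is not given in the sources used here, so results of the variant genes that rest on WT are given with and without it. The fits of list genes are given with WT only.

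Upon differentiation, 4 of the 7 genes with FPKM values were lower in 10 of 10 lines (H2afz, H2afx, H2afy and Cenpa), 1 was higher in 10 of 10 (H2afj), and H2afv and H2afy2 moved in both directions. Over all genes tested, 21.3% were lower and 22.7% higher in 10 of 10 lines. With limma on log2(FPKM + 1) and Benjamini-Hochberg adjustment over 10954 genes, Cenpa, H2afx and H2afz passed an adjusted p of 0.05 with a fall of at least 1 on the log2 scale, as 8.41% of genes did, and none passed in the other direction, as 8.87% did. Without the limit on size, 4 of the 6 tested genes were lower (28.1% of all) and H2afj was higher (30.5% of all). The differentiated values lay wholly below the growth values for H2afx, H2afy and Cenpa (8.74% of genes), and wholly above for none of the 6 (8.85% of genes). In these bulk libraries, fewer cells that transcribe a gene and less of its RNA per cell cannot be told apart.

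**Figure D1:**
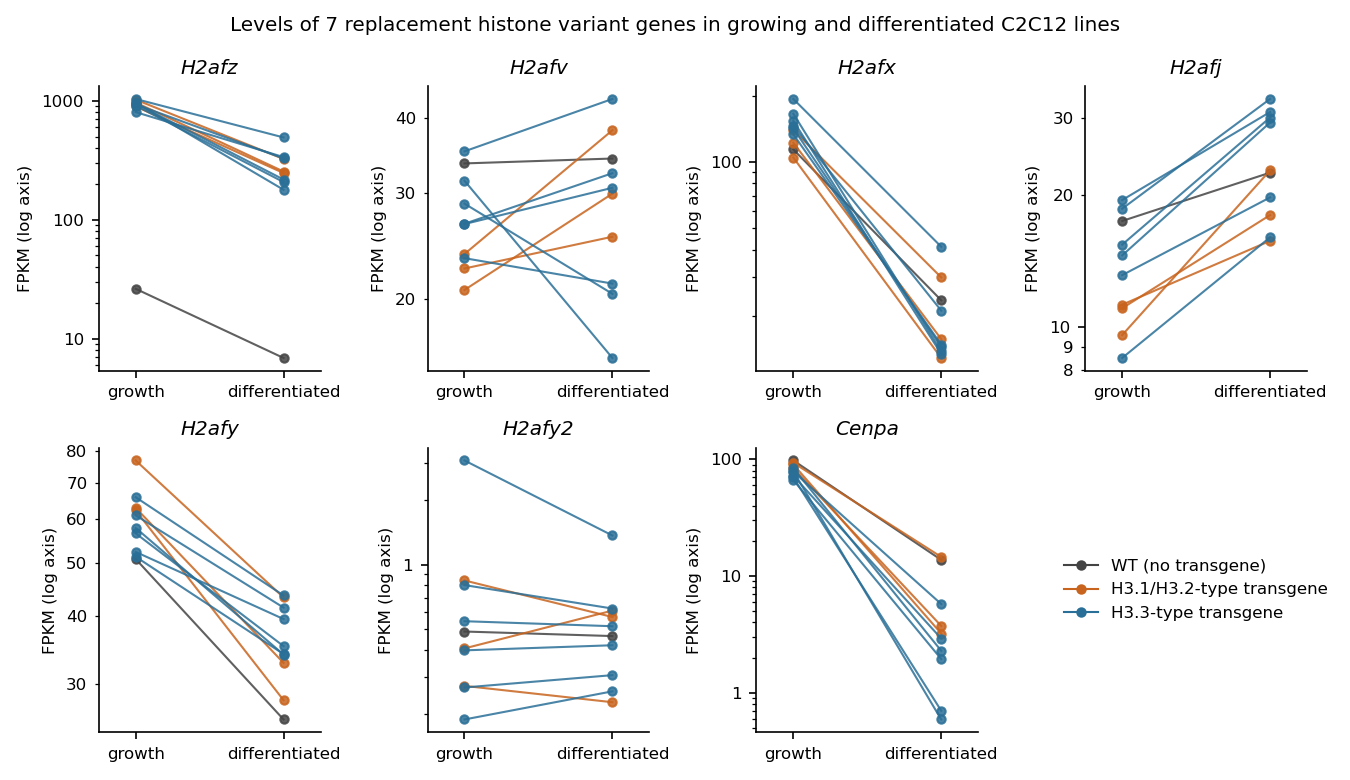
FPKM of the 7 genes on a log axis, 1 point per library, with both states of a line joined. H2afz, H2afx, H2afy and Cenpa fall in 10 of 10 lines and H2afj rises in 10 of 10, and WT lies far below the other lines for H2afz.

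H2afz was the highest of the 7 genes in every GFP line. Its level in growth was 26.2 FPKM in WT and 803 (H3.3) to 1036 FPKM (H3mm7) in the 9 GFP lines, with a median over 10 lines of 940 FPKM. In differentiated cells it was 6.86 FPKM in WT and 178 (H3mm12) to 491 FPKM (H3mm7) in the GFP lines, with a median over 10 lines of 250.3 FPKM. Without WT the states did not overlap. The fall in WT, 3.82-fold, lay within the range of the GFP lines, 2.11-fold (H3mm7) to 5.40-fold (H3mm12). The mean difference was -1.77 ± 0.69 (SE) on the log2 scale, with an adjusted p of 0.0321 (limma), and the spread behind it came mainly from WT: without both WT libraries it was -1.77 ± 0.15, adjusted p = 4.7e-09. Leaving out H3.1, H3.2, H3mm11, H3mm12, H3mm13, H3mm16 or H3t while WT stayed in raised the adjusted p to between 0.0515 and 0.0668. These fits do not use the pairing of the states by line. With the line as a replicate block and WT kept, the difference was -1.77 ± 0.12, adjusted p = 1.1e-07 (limma).

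The GFP lines were more alike for H2afz in growth than in differentiated cells. The SD over the 9 lines on the log2 scale was 0.11 in growth, higher than for only 9.44% of genes tested, and 0.45 in differentiated cells, higher than for 75.7%. Differentiated levels were highest in H3mm7 (491 FPKM), followed by H3.3 (336), H3mm11 (327), H3.2 (324), H3t (254), H3.1 (246.7), H3mm16 (218), H3mm13 (207) and H3mm12 (178).

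H2afv, the partner of H2afz, did not follow it. It had 20.7 (H3t), 26.7 (median) and 35.2 FPKM (H3mm12) in growth and 15.996 (H3mm7), 30.3 (median) and 43.0 FPKM (H3mm12) in differentiated cells, and the states overlapped. The difference was 0.06 ± 0.15 on the log2 scale (adjusted p = 0.771, limma), with a 95% interval from -0.26 to 0.37. The lines went in different directions: H2afv was higher after differentiation in 7 lines, by up to 1.60-fold in H3.1, and lower in H3.3, H3mm7 and H3mm11, by up to 1.97-fold in H3mm7. The levels of H2afv and H2afz had r = -0.41 over 20 libraries and -0.33 over the 18 GFP libraries, and, with the mean of each state removed, -0.43 and -0.77, which is a description of libraries that come in pairs from 9 lines.

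The share of H2afv in the FPKM of the pair rose in 10 of 10 lines. It was 2.10% (H3t) to 3.52% (H3mm12) in growing GFP lines and 3.15% (H3mm7) to 19.4% (H3mm12) in differentiated ones, with medians of 2.83% and 10.5%. In WT it was 56.2% and 83.3%, since H2afz was low there. The log2 ratio of H2afv to H2afz, each with 1 FPKM added, rose by a mean of 1.83 ± 0.83 (SD, n = 10 lines; exact two-sided sign-flip test, p = 0.00195, the smallest that 10 lines allow, and 0.00391 after adjustment over 2 pairs). It was smallest in H3mm7 (0.14) and largest in H3mm12 (2.71), the lines with the smallest and the largest fall of H2afz. On this scale the rise is the change of H2afv less that of H2afz. Their means were 0.06 and -1.77, so the rise mainly restates the fall of H2afz. The summed level of the pair stayed led by H2afz in the GFP lines, between 827 and 1067 FPKM in growth and between 221 and 507 FPKM in differentiated cells.

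**Figure D2:**
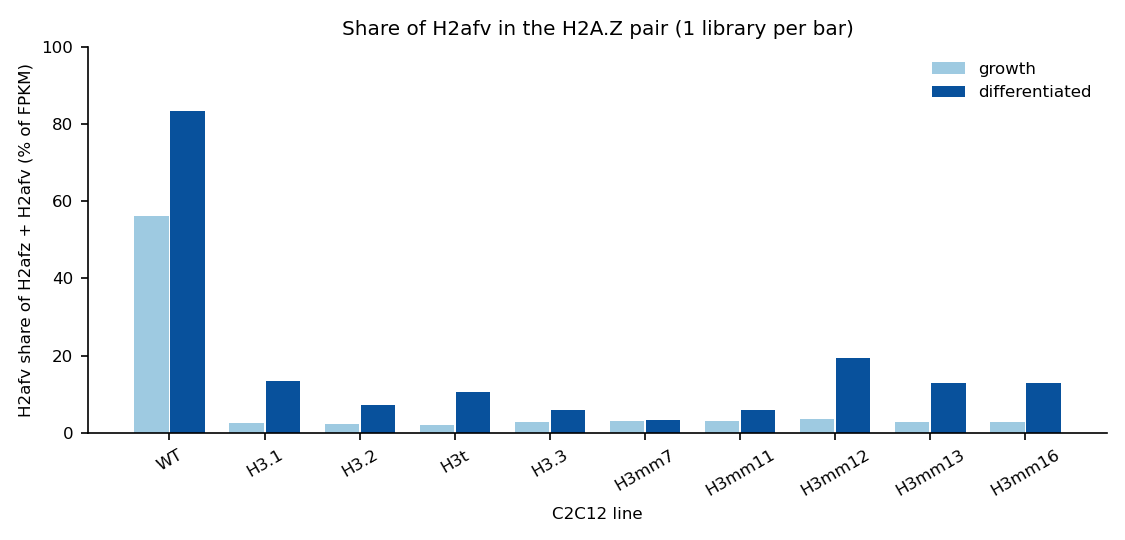
Share of H2afv in the summed FPKM of H2afz and H2afv, in percent, for each line in growth (light) and differentiated cells (dark), 1 library per bar. The share is 2.10% to 3.52% in growing GFP lines, 3.15% to 19.4% in differentiated ones, and 56.2% and 83.3% in WT.

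Of 15 genes tested for the exchange of H2A.Z, 2 were called lower, near the 8.41% of all genes, and none higher, and the median difference was -0.21 against 0.04 over all genes. Without the limit on size 6 were lower (28.1% of all genes) and 1 higher (30.5% of all). The called genes were Ruvbl2, an ATPase shared by the SRCAP, p400 and INO80 complexes (-1.10 ± 0.19, adjusted p = 3.5e-05, limma), and Anp32e, the chaperone that removes H2A.Z (-1.04 ± 0.23, adjusted p = 0.000489). The 1 gene that was higher, Actr8 of INO80, had a difference of 0.20.

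H2afx fell in every line and its states did not overlap. Besides a polyadenylated transcript, H2afx is known to make one that ends in a stem-loop without a poly(A) tail. A library primed with oligo(dT) would miss it, and how these libraries treated it was not tested. The levels were 105 (H3t), 141 (median) and 193 FPKM (H3mm7) in growth and 12.9 (H3t), 15.3 (median) and 41.3 FPKM (H3mm7) in differentiated cells. H3t was the lowest and H3mm7 the highest of the 10 lines in both states. The fall was 4.66-fold in H3.1 to 11.9-fold in H3mm16, and the difference on the log2 scale was -2.83 ± 0.18 (adjusted p = 2.5e-11, limma). In differentiated cells H3mm7 (41.3), H3.1 (30.0045), WT (23.6) and H3.3 (21.2) were above 20 FPKM and the other 6 lines lay between 12.9 and 15.8 FPKM.

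Of 16 genes tested from the response that reads phosphorylated H2A.X, 2 were called lower (8.41% of all genes) and 11 were lower at any size (28.1% of all), none passed as higher, and the median difference was -0.44. The other 5 did not pass, among them Trp53bp1, which binds near breaks, with a difference of 0.13 (adjusted p = 0.0981, limma). The called genes were Brca1, a repair factor, which had -2.60 ± 0.13 (adjusted p = 9.8e-13, limma), and Mre11a, a subunit of the break sensor, with -1.03 ± 0.09 (adjusted p = 4.7e-09). The mediator Mdc1, which binds the phosphorylated tail, went from a median of 7.03 to 4.02 FPKM, and Atm, a kinase that phosphorylates it, from 4.05 to 2.53 FPKM.

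Cenpa had the largest fall of the 7 genes and, among them, the largest differences between differentiated lines apart from those of H2afz that WT makes. Its levels in growth were 66.3 (H3mm16), 81.2 (median) and 97.6 FPKM (WT). In differentiated cells they were 0.590 (H3mm11), 0.701 (H3mm13), 1.94 (H3mm16), 2.29 (H3.3), 2.91 (H3mm12), 3.21 (H3.2), 3.73 (H3t), 5.75 (H3mm7), 13.7 (WT) and 14.6 FPKM (H3.1). All differentiated values were below all growth values, but WT and H3.1 kept far more than H3mm11 and H3mm13. The fall was 6.40-fold in H3.1, 7.11-fold in WT and 133-fold in H3mm11, and the difference on the log2(FPKM + 1) scale, which understates the change at low levels, was -4.19 ± 0.34 (adjusted p = 9.3e-10, limma). A lower value was found for 0.1004% of genes. The SD between lines on the log2 scale was 0.18 in growth, higher than for 27.2% of genes, and 1.12 in differentiated cells, higher than for 96.4%.

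The remaining Cenpa of a differentiated line went with the remaining level of other cell cycle genes. The 17 genes of the cell cycle list summed to 1843 to 2589 FPKM in growth and to 160.4 (H3mm13) to 455 FPKM (H3.1) in differentiated cells. Over the 10 differentiated libraries, log2 Cenpa and the log2 of that sum had r = 0.89 (Spearman rho = 0.88), and over the 9 GFP lines r = 0.89 (rho = 0.83). For H2afx, r was 0.46 over 10 libraries and 0.43 over the 9 GFP lines, and for H2afz it was -0.32 and -0.03. In growth Cenpa and the sum had r = -0.12 over 10 libraries and 0.28 over the 9 GFP lines. Each line is 1 library here, and the part of incomplete cell cycle exit in these differences was not tested.

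**Figure D3:**
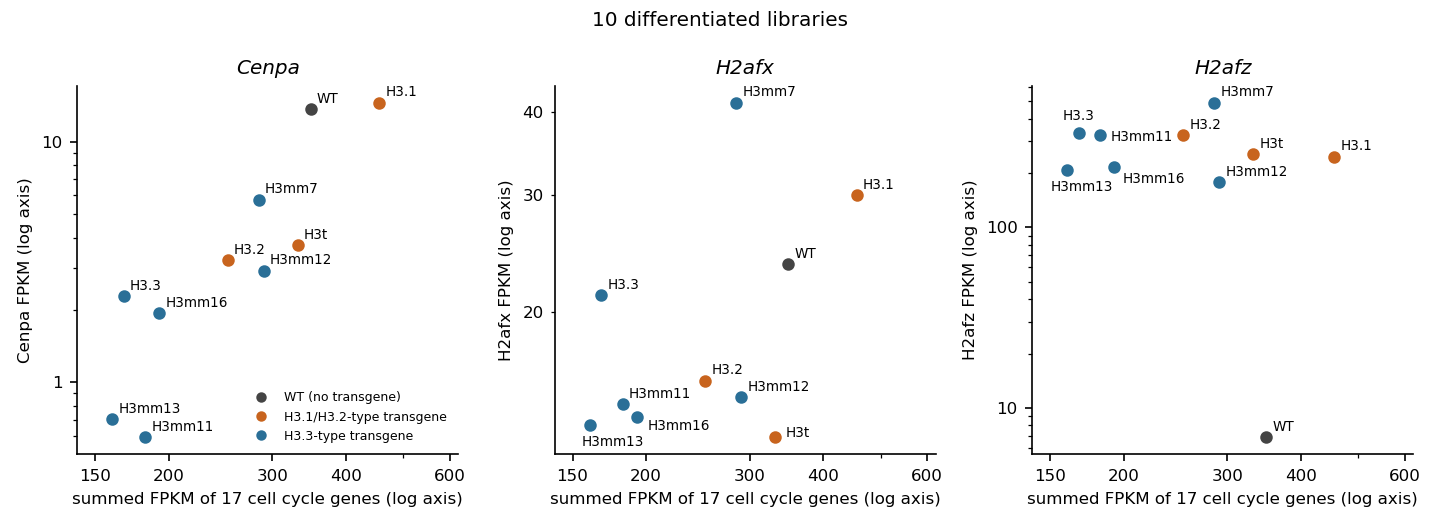
Levels of Cenpa, H2afx and H2afz in 10 differentiated libraries against the summed FPKM of 17 cell cycle genes, both axes logarithmic, 1 labelled point per line. Over 10 libraries Cenpa has r = 0.89 with the sum, H2afx 0.46 and H2afz -0.32, and over the 9 GFP lines these are 0.89, 0.43 and -0.03.

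Most genes that deposit CENP-A, and the genes of the inner kinetochore that assembles on it, were lower as well. Of 9 deposition genes tested, 6 were called lower (8.41% of all genes) and none higher, 7 were lower at any size (28.1% of all), and the median was -2.20. Those that did not pass were the histone-binding Rbbp4 (0.15, adjusted p = 0.333, limma) and Npm1 (-0.65, adjusted p = 0.084). The largest falls were those of Plk1, the kinase that licenses deposition (-4.38 ± 0.29, adjusted p = 4.8e-11, limma), and Casc5, a kinetochore scaffold (-2.90 ± 0.18, adjusted p = 1.1e-11). Hjurp, the CENP-A chaperone itself, was also called and went from a median of 4.55 to 0.752 FPKM and was lower in 10 of 10 lines. Of 16 genes of the inner kinetochore, 12 were called lower and none higher, all 16 were lower at any size, and the median was -1.99. Cenph (-3.45 ± 0.22) and Cenpi (-2.92 ± 0.19) fell most, with adjusted p of 2.4e-11 and 2.9e-11. Cenpc1, which encodes CENP-C and touches the CENP-A nucleosome, fell less, from a median of 10.1 to 4.98 FPKM (-0.82 ± 0.14). The summed level of this list in differentiated cells was lowest in H3mm11 (54.9 FPKM) and highest in H3mm7 (99.8 FPKM) and H3.1 (96.8 FPKM). It did not follow Cenpa in every line: WT, with Cenpa at 13.7 FPKM, had a sum of 68.1 FPKM, near the 68.3 FPKM of H3.3, with Cenpa at 2.29 FPKM.

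H2afy, the main macroH2A gene of these cells, fell by a smaller and more even amount. Its levels were 50.8 (WT), 59.4 (median) and 76.9 FPKM (H3.1) in growth and 25.8 (WT), 34.6 (median) and 43.5 FPKM (H3mm7) in differentiated cells. WT was the lowest line in both states, but by little: the next lines had 51.3 and 28.0 FPKM. The states did not overlap, with a fall of 1.33-fold to 2.23-fold, and the difference was -0.74 ± 0.10 (adjusted p = 2.6e-06, limma), which passes the test but not the limit of 1.

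H2afy2 was hardly detected except in the GFP-H3.3 line. The other 9 lines had 0.189 (H3mm11) to 0.843 FPKM (H3.1) in growth, and GFP-H3.3 had 3.07 FPKM. In differentiated cells the 9 lines had 0.227 (H3.2) to 0.623 FPKM (H3mm13), and GFP-H3.3 had 1.37 FPKM. GFP-H3.3 was thus the highest line in both of its libraries, while the other 5 H3.3-type lines were not apart from the rest. The mean over 20 libraries was 0.632 FPKM, so H2afy2 was not tested. Its level was lower after differentiation in 6 lines and higher in 4. The log2 ratio of H2afy2 to H2afy, with 1 FPKM added to each, rose by 0.64 ± 0.38 (SD, n = 10 lines; higher in 9 of 10; exact two-sided sign-flip test, p = 0.00391, also 0.00391 after adjustment over 2 pairs), and with H2afy2 mostly below the added 1 FPKM this rise mainly restates the fall of H2afy.

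Of 5 genes that read or accompany macroH2A or carry histones through transcription, 2 were called lower (8.41% of all genes) and none higher. Without the limit on size 3 were lower (28.1% of all). The called genes were Lbr (the lamin B receptor) and Ssrp1 (a FACT subunit), each with -1.21 (adjusted p of 1.4e-07 and 7.5e-10, limma). Parp1, which binds the macro domain, had -0.97 ± 0.10 (adjusted p = 3.9e-08) and stayed just inside the limit on size. The other 2, Atrx (0.07) and Chd4 (0.02), did not pass the test.

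H2afj, a variant of H2A known from senescent and differentiated cells, was the only one of these genes that rose in every line. It had 8.51 (H3.3), 13.9 (median) and 19.5 FPKM (H3mm11) in growth and 15.7 (H3.2), 22.7 (median) and 33.2 FPKM (H3mm13) in differentiated cells. The states overlapped because the lines differed in both: the SD over lines was 0.38 and 0.39 on the log2 scale. Within lines the rise was 1.29-fold in WT to 2.37-fold in H3.1, and the difference was 0.73 ± 0.16 (adjusted p = 0.000654, limma), under the limit of 1. After differentiation H3mm13 (33.2), H3mm11 (30.96), H3mm16 (30.1) and H3mm12 (29.3 FPKM) were above the other 6 lines, which had 15.7 to 22.8 FPKM. The same 4 lines had 14.6 to 19.5 FPKM in growth, where WT with 17.5 FPKM lay among them.

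**Figure D4:**
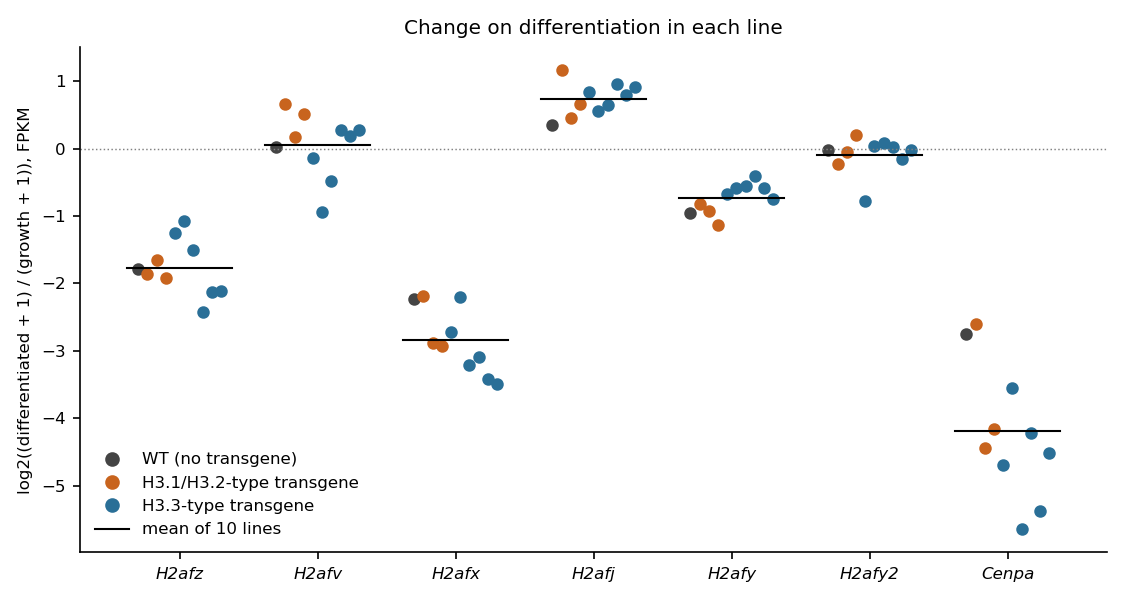
Change of each gene in each line, as log2 of (differentiated + 1) over (growth + 1) FPKM, coloured by the type of the transgene, with the mean of 10 lines as a bar. H2afz, H2afx, H2afy and Cenpa are below 0 in all 10 lines and H2afj is above 0 in all 10, while H2afv and H2afy2 lie on both sides.

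The order of the levels changed between the states. In growth it was H2afz, H2afx, Cenpa, H2afy, H2afv, H2afj and H2afy2 by the median. Each neighbour pair kept this order in 10 of 10 lines, except H2afz over H2afx (9 of 10, reversed in WT), though the ranges of Cenpa and H2afy overlapped (mean log2 difference 0.44 ± 0.21, SD over 10 lines). In differentiated cells the order was H2afz, H2afy, H2afv, H2afj, H2afx, Cenpa and H2afy2, with H2afz first in all GFP lines but not in WT. The 3 steps from H2afy to H2afx did not exceed the spread between lines: H2afy was above H2afv in 7 of 10 lines (0.32 ± 0.55), H2afv above H2afj in 7 of 10 (0.27 ± 0.46) and H2afj above H2afx in 5 of 10 (0.29 ± 0.77). H2afx was above Cenpa in 10 of 10 lines (2.14 ± 0.85), and Cenpa above H2afy2 in 10 of 10 (1.56 ± 1.16). Cenpa, which stood just after H2afx in growing cells, was thus below every gene but H2afy2 by the median, whereas the place of H2afx among H2afy, H2afv and H2afj was not set apart from the spread. Among all genes tested, the median level of Cenpa went from above 89.8% of genes to above 15.6%, and that of H2afx from above 94.1% to above 55.3%.

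The type of the transgene made no difference to these genes that passed the test. In growth, none of the 6 tested genes was called between 6 H3.3-type and 3 H3.1/H3.2-type lines, beside 0.21% of all genes. In differentiated cells none was called, beside 0.758%, and none for the interaction of type and state, beside 0.0% of genes (0 at this threshold, and 1002 of 10954 at an unadjusted p under 0.05; limma). At an unadjusted p under 0.05, Cenpa in differentiated cells was the only 1 of the 6 to pass in any of these 3 contrasts. The largest difference was that of Cenpa in differentiated cells, where H3.3-type lines had 0.590 to 5.75 FPKM and H3.1/H3.2-type lines 3.21 to 14.6 FPKM, and the ranges overlapped. It was -1.19 ± 0.40 on the log2 scale with an adjusted p of 0.102 (limma, 95% interval -2.02 to -0.35), and it rested on single lines: without H3.1 it was -0.59 (adjusted p = 0.441, limma) and without H3mm7 -1.42 (adjusted p = 0.0429, limma), which are the highest and the lowest adjusted p over the alternatives tried. Cenpa in growth had 66.3 to 83.7 FPKM in H3.3-type and 83.9 to 93.2 FPKM in H3.1/H3.2-type lines, ranges that did not overlap, as was so for 9.94% of genes, and a difference of -0.25 with an adjusted p of 0.896.

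H2afj differed by 0.44 ± 0.24 between types in differentiated cells (adjusted p = 0.304, limma), with 16.04 to 33.2 FPKM in H3.3-type and 15.7 to 22.8 FPKM in H3.1/H3.2-type lines. H2afv had an interaction of -0.58 ± 0.32 (adjusted p = 0.628), in that it rose in 3 of 3 H3.1/H3.2-type lines and in 3 of 6 H3.3-type lines (H3mm12, H3mm13 and H3mm16). For H2afz the difference between types was -0.05 in growth (95% interval -0.54 to 0.45) and 0.01 in differentiated cells (-0.48 to 0.51), and for H2afx in differentiated cells -0.01 (-0.63 to 0.60). The H2afz value of 0.01 averages H3.3-type lines on both sides of the H3.1/H3.2-type lines, which had 246.7 to 324 FPKM. Differentiated H2afz was 327 to 491 FPKM in H3.3, H3mm7 and H3mm11 and 178 to 218 FPKM in H3mm12, H3mm13 and H3mm16. The paper's principal component analysis put H3.3, H3mm7 and H3mm11 in a group of their own after differentiation (D3). Differences within the H3.3-type were not tested. In differentiated libraries the types did not overlap for 6.07% of genes and for none of these 6.

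Genes with the most similar course over the 20 libraries were taken as the 3 with the highest Pearson r on log2(FPKM + 1). For Cenpa they were Fam83d (r = 0.997), Ckap2l (0.996) and Pttg1 (0.996), where Pttg1 encodes securin, which holds sister chromatids together until anaphase, and Fam83d stayed first with the mean of each state removed (r = 0.98). For H2afx they were Sapcd2 (r = 0.99), Pola2 (0.99) and Pold1 (0.99), the last pair being subunits of replicative polymerases. For H2afy they were Trim28 (r = 0.95), Phc2 (0.95) and Pop4 (0.94), the first encoding a corepressor and the second a subunit of Polycomb complex 1. The genes next to H2afz, namely Eif4a1 (r = 0.99), Snrpg (0.98) and Ube2s (0.98), shared its low WT values, and over the 18 GFP libraries its nearest genes were Cdca7 (0.98), Elp6 (0.98) and Exosc8 (0.98), none of them the same. H2afv was nearest to C1qtnf1 (r = 0.88), Kremen1 (0.87) and Lynx1 (0.86). H2afy2 had no gene above r = 0.66. The number of genes with r above 0.9 was 604 for H2afx, 601 for Cenpa, 95 for H2afz, 84 for H2afy and 0 for the other 3. Over the 18 GFP libraries it was 731 for H2afx, 785 for Cenpa, 686 for H2afz and 221 for H2afy. The low count of H2afz thus rests on the WT libraries, while that of H2afy stayed below those of H2afx, Cenpa and H2afz without them. These libraries share the state, which sets most of each r, and the values are a description.

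H3f3a and H3f3b, which encode the same H3.3 protein, had few reads in 3′-seq. The libraries held between 539990 (growing C2C12) and 14060394 uniquely mapped reads (skeletal muscle, replicate 1), and a gene got between 0 and 28 of them. Intervals below are exact Poisson 95% intervals of the reads, and a value of 0 is given with the limit that 3 reads set, both of which cover counting error only. Only reads with a single place were counted.

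Among the 4 tissues, H3f3a was seen most in brain. Its values were 2.73 RPM (16 reads, 1.56 to 4.43) and 1.55 RPM (9 reads, 0.708 to 2.94) in the brain libraries and 1.39 RPM (5 reads, 0.451 to 3.24) and 1.09 RPM (8 reads, 0.470 to 2.15) in testis. In skeletal muscle it had 0.640 RPM (9 reads) and 0.130 RPM (1 read). In liver it had 1.35 RPM (6 reads) and 0 reads (up to 0.475 RPM), so the liver libraries lie on both sides of skeletal muscle and of the lower testis library, and both brain libraries are above them.

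Among the 4 tissues, H3f3b was seen most in testis, with 7.77 RPM (28 reads, 5.16 to 11.2) and 2.18 RPM (16 reads, 1.245 to 3.54), and these intervals do not overlap. In brain it had 1.54 RPM (9 reads) and 0 reads (up to 0.516 RPM), in liver 2.25 RPM (10 reads) and 0 reads (up to 0.475 RPM), and in skeletal muscle 0.498 RPM (7 reads) and 0.130 RPM (1 read). The higher liver library thus lay above the lower testis library, and the tissues overlap.

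Across the 4 tissues, neither gene passed the F-test of limma on log2(RPM + 0.1): the adjusted p was 0.409 for H3f3a and 0.123 for H3f3b over the 10 genes with a mean of at least 1 RPM, of which 40.0% passed. The means differed by 2.50 (H3f3a, highest in brain) and 3.51 (H3f3b, highest in testis) on the log2 scale. With 2 libraries per tissue the test shared its spread over the 10 genes, so these p-values do not measure the spread of either gene alone. With the replicate table as a replicate block, H3f3b had an adjusted p of 0.0246 (limma), but whether a replicate number marks a shared animal is not given. The calls also changed with the liver libraries. Without liver replicate 1 the adjusted p was 0.000941 for H3f3a and 0.00223 for H3f3b, and without liver replicate 2 it was 0.139 for H3f3a and 0.0161 for H3f3b.

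The share of H3f3b among the reads of both H3.3 genes is not scaled by the depth of a library. It was 84.8% (28 of 33 reads; exact Clopper-Pearson 95% interval 68.1% to 94.9%) and 66.7% (16 of 24; 44.7% to 84.4%) in testis, and 36% (9 of 25; 17.97% to 57.5%) and 0% (0 of 9 reads, up to 33.6%) in brain. Both brain libraries were below both testis libraries. Liver replicate 1 had 62.5% (35.4% to 84.8%) and skeletal muscle replicate 1 had 43.8% (19.8% to 70.1%), with intervals that reach values of both brain and testis. Skeletal muscle replicate 2 had 50% (1 of 2 reads; 1.26% to 98.7%). In differentiated C2C12 cells it was 60% (15 of 25; 38.7% to 78.9%) and in growing ones 0% (0 of 4 reads, up to 60.2%).

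In C2C12 cells, with 1 library per state and no replicate check, H3f3a had 7.41 RPM (4 reads, 2.02 to 19.0) in growth and 2.53 RPM (10 reads, 1.21 to 4.65) in differentiated cells. H3f3b had 0 reads in growth, which allows up to 5.56 RPM, and 3.80 RPM (15 reads, 2.12 to 6.26) in differentiated cells. A difference between states was not detectable at this depth for either gene.

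**Figure D5:**
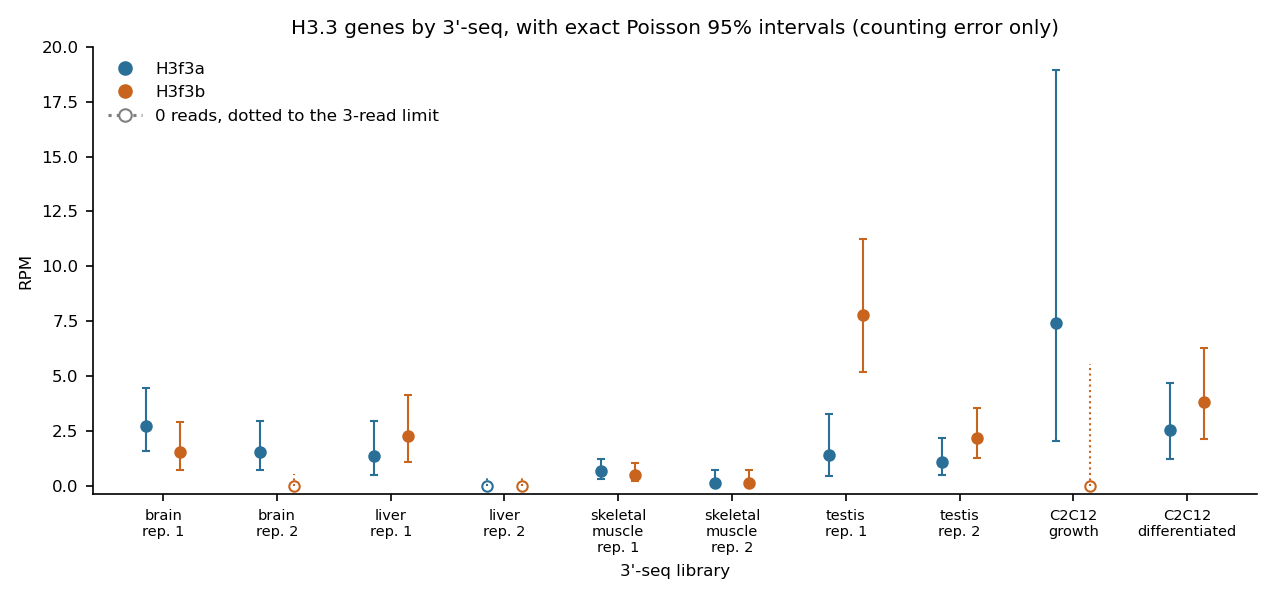
RPM of H3f3a (blue) and H3f3b (orange) in 10 3′-seq libraries, with exact Poisson 95% intervals and, for 0 reads, an open point with a dotted line to the limit of 3 reads. H3f3b is highest in testis replicate 1 (7.77 RPM) and H3f3a in growing C2C12 cells (7.41 RPM from 4 reads). For H3f3b, testis replicate 2 (2.18 RPM) lies below differentiated C2C12 cells (3.80 RPM) and liver replicate 1 (2.25 RPM).

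Genes for placing H3.3 went in both directions in the mRNA-Seq. Of 12 tested, 3 were called lower (8.41% of all genes) and none higher, 6 were lower (28.1% of all) and 3 higher at any size (30.5% of all), and the median difference was -0.30. The largest falls were those of Asf1b, the replication-linked isoform of the H3 and H4 chaperone ASF1 (-3.66 ± 0.26, adjusted p = 9.2e-11, limma), and Nasp, which holds soluble H3 and H4 (-2.21 ± 0.18, adjusted p = 1.1e-09). Dek was called as well (-1.84 ± 0.15, adjusted p = 1.1e-09). Hira, the chaperone for active genes, went from a median of 16.6 to 10.2 FPKM. Its partners Ubn1 and Ubn2 were higher in 10 of 10 lines, by 0.37 ± 0.10 and 0.49 ± 0.09 (adjusted p of 0.00253 and 9.4e-05), and so was the remodeller Chd2 (0.51 ± 0.11, adjusted p = 0.000637).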

How the data were processed

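mRNA-Seq reads of the GFP lines were mapped to mm9 with TopHat2 2.0.8, and the authors deposited FPKM from Cuffdiff of Cufflinks 2.0.1 (versions per the submitters' processing notes). Fragment numbers are unknown, so FPKM has no counting interval. The 3′-seq reads were mapped with STAR, and the deposited RPM values are whole multiples of 1 step per library (within 0.01 reads), which gave the reads. The columns named H3mmT were taken as H3t from the sample titles.

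Genes with a mean of at least 1 FPKM were fitted with limma 3.58.1 (trend, robust) on log2(FPKM + 1), as states (10 and 10 libraries) and as types within states (6 and 3, WT as a group of its own), with Benjamini-Hochberg adjustment over all of them, and genes were called where the adjusted p was under 0.05 and the log2 difference 1 or more. Tissues were fitted on log2(RPM + 0.1). Likeness was taken over non-members, and that of H2afj is not reported here; list genes named are at most 2 rises and 2 falls among those called, and Hjurp, Cenpc1, Mdc1, Atm, Actr8, Parp1, Dek, Hira, Ubn1, Ubn2, Chd2, Trp53bp1, Rbbp4, Npm1, Atrx, Chd4, Myod1, Myf5, Myog, Mki67, Top2a, Cdh15, Des, Pax7 and Emr1 were chosen after their values were seen. Members and lists were chosen with earlier results of these data known. The lines pair the states: deviations of both libraries of a line correlated with r between 0.27 and 0.88, and each of 10 lines matched itself best. The fits were tested on simulated data. R 4.3.3, Python 3.11.15, pandas 2.3.3, numpy 2.4.6, scipy 1.17.1, numba 0.67.0 and matplotlib 3.10.9 were used. The ChIP-seq and input samples were not analysed here.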

Additional observations from a re-analysis of the deposited data

Results flagged for a closer look

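Of 14 groups of 10 libraries, 7 genes in 2 states, 3 had 1 library so far from its nearest neighbour that the gap took more of the range of linear FPKM than Dixon's 95% value of 0.466, where chance gives about 1 in 20. For H2afz in growth it was the lowest library, WT with 26.2 FPKM, where the gap was 0.77 of the range, and on the log2 scale the differentiated WT library passed as well (0.756). For H2afy2 it was the highest library, GFP-H3.3, in growth (3.07 FPKM, 0.773 of the range) and in differentiated cells (1.37 FPKM, 0.653 of the range), and both passed on the log2 scale too (0.643 and 0.575). Beside the H2afz value stand the 53.6% of its exon words that occur once in mm9 and the 50 of 88 ribosomal protein genes that were over 8-fold lower in WT, and the part of mapping in it was not tested.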

How the results depend on the processing

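All alternatives kept the direction of the state difference for Cenpa, H2afx, H2afy, H2afz and H2afj, and for Cenpa, H2afx, H2afy and H2afj also the side of the adjusted p. For H2afz the adjusted p was 0.0504 without a filter on low values. Without 1 line, 1848 to 1978 genes were called for the state against 1893, with 2 to 3 of the variant genes among them. With the line as a replicate block (paired states) 1910 genes were called, H2afz had an adjusted p of 1.1e-07 and no variant gene changed its call.

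Counts between H3 types varied most. In growth, 23 genes were called as reported, 46 with a pseudocount of 0.1 FPKM, 14 without a filter on low values, 14 where the mean had to reach 5 FPKM and 2 (without H3.1) to 25 without 1 line. In differentiated cells these were 83, 136, 39, 48 and 3 (without H3.1) to 295 (without H3.2). No variant gene was called except Cenpa in differentiated cells without H3mm7, so their number was 0 to 1 without 1 line. For the interaction, 0 genes became 2 without a filter, 1 at a mean of 5 FPKM or more, 4 with quantile normalization and 0 to 2 without 1 line. The cause was not tested.

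Both paralog ratios kept their direction and test under all alternatives (1.73 to 2.02 for H2afv over H2afz without 1 line). H3f3b over H3f3a could not be formed in mRNA-Seq. In tissues, 4 genes became 1 (without either testis replicate) to 7 (without either liver replicate); H3f3a fell below the filter without brain replicate 1 and H3f3b without testis replicate 1. With the replicate table as a replicate block, H3f3b had an adjusted p of 0.0246 at the same range of 3.51, but whether a number marks a shared animal is not given in the sources used here (r of deviations between tissues from -0.235 to 0.687). The planned count test on the reads was not run. Depth limits the H3.3 genes most, with at most 28 reads per library. Chosen after seeing the data, likeness without WT or within states shared 0 to 2 of the 3 nearest genes.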
